A study of Mus musculus with 3 samples.

Results

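The genes described here are 35 mouse genes of glycolysis and of the cellular response to low oxygen, of the 32285 genes counted in 3 single-cell RNA libraries from mouse hind paws. They are set by gene symbol and function, but were chosen with earlier results of these data known. They fall into 4 role groups: 18 glycolytic enzymes, 5 genes of glucose and lactate transport and of pyruvate use, 4 genes of the hypoxia-inducible factor (HIF) and its prolyl hydroxylases, and 8 other target genes of HIF. Stromal cells, sorted as CD45-, were taken 5 days after K/BxN serum transfer (day 5) and at day 0, which the labels call steady state. Myeloid cells, sorted as CD45+CD11b+Ly6G-, were taken 9 days after transfer (day 9). In K/BxN serum transfer, serum from arthritic K/BxN mice is injected into the abdominal cavity of recipient mice, and its autoantibodies bring on joint inflammation. Skin, muscles and tendons were removed from the hind paws, and the remaining tissue was digested with collagenase IV and deoxyribonuclease I at 37°C before sorting. Each group is 1 library; the strain, sex, age and number of mice, and whether mice were pooled, are not given in the sources used here.

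Glycolysis splits glucose into pyruvate, and lactate dehydrogenase turns pyruvate into lactate when it is not burned in mitochondria. The alpha subunits of HIF, encoded by Hif1a and Epas1, are marked for destruction by prolyl hydroxylases while oxygen is present. In low oxygen they accumulate and switch on glycolytic enzymes, glucose and lactate transporters, and genes of blood vessel growth and mitochondrial removal. Inflamed synovium is known as a poorly oxygenated tissue, and activated macrophages and synovial fibroblasts are known to raise glycolysis, also without a fall in oxygen.

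After filtering, 10108 stromal cells of day 5, 6912 stromal cells of day 0 and 5574 cells of the day 9 myeloid library remained, with median counts of 9113, 9674 and 6395 unique molecular identifiers (UMIs, each standing for 1 captured RNA molecule) per cell. Between 22 and 35 cell barcodes were shared by each pair of libraries. Stromal cells were clustered without the member genes and assigned to 5 classes by markers. At day 5 and day 0 the Prg4 class (lining fibroblast-like) numbered 300 and 226 cells, the Fmod class (tenocyte-like) 1210 and 1132, and the Ibsp class (osteoblast-like) 591 and 548. The other Pdgfra class numbered 6242 and 4582 cells. It joins clusters with Pdgfra of at least 200 CPM and a low score for the markers of each other class. Some of its clusters still carried such markers, with Fmod at 450 CPM in the cluster led by Sfrp2 and 599 CPM in that led by H19. The markers followed the names: Prg4 reached 42367 CPM at day 5, against 48052 CPM at day 0 in its class (CPM, UMIs of a gene scaled to 1000000 UMIs of all genes), Fmod at 2956 CPM at day 5 and 2573 at day 0, Ibsp at 9780 CPM at day 5 and 8306 at day 0, and Pdgfra at 404 CPM at day 5 and 397 at day 0 in the other Pdgfra class. The Saa3 class (inflammatory fibroblast-like) held 1277 cells at day 5 but 11 at day 0. These 11 cells had no Saa3 UMI, against 2616 CPM of Saa3 at day 5. The markers were not exclusive: at day 5 Prg4 also stood at 5871 CPM in the Saa3 class and 2817 CPM in the Fmod class, against 515 CPM in the other Pdgfra class. Pdgfra stood at 427 CPM in the Saa3 class at day 5.

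For CPM, the UMIs of a gene in all cells of a class and library were added up and divided by the UMI total of the same cells. With 1 library a day no difference could be tested: the 95% intervals below cover counting error only, not the spread between mice, and higher or lower describes these libraries. A member counts as measured in a comparison when it had at least 20 UMIs in both libraries together and at least 1 in each, and it is counted as apart when its ratio was at least 1.5-fold in either direction. Aldoc, an aldolase best known from brain, had 11 UMIs in the whole day 5 stromal library and 5 in that of day 0, and was measured in none of the 5 classes. The other 34 members were measured in the other Pdgfra class and in the Fmod class, and 33 in the Prg4 and Ibsp classes, where Egln3 also fell short.

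In the 4 classes with enough cells on both days, the glycolytic enzymes stood close together at day 5 and day 0, and their summed level was slightly lower at day 5. The 18 enzymes summed to 1788 CPM at day 5, against 1939 CPM at day 0 in the other Pdgfra class, to 2562 CPM at day 5 and 2892 at day 0 in the Prg4 class, to 2052 CPM at day 5 and 2399 at day 0 in the Fmod class, and to 2141 CPM at day 5 and 2242 at day 0 in the Ibsp class. Among the 11 other Pdgfra clusters with at least 50 cells on each day, the sum was lower at day 5 in 7, and the ratio of day 5 to day 0 ran between 0.842 and 1.14 with a median of 0.945. Of all genes measured in the other Pdgfra class, 9.59% were at least 1.5-fold higher at day 5 and 6.74% at least 1.5-fold lower. Against that background none of the 17 measured enzymes was apart in either direction in the other Pdgfra class, and their median log2 ratio was -0.02, beside 0.02 over all genes. Cells were shallower at day 5 in each class, with medians of 8850 and 9780 UMIs in the other Pdgfra class. At day 5 its 1561 shallowest cells summed to 1675 CPM and its 1560 deepest to 1897 CPM. The 75 shallowest Prg4 cells of day 5 summed to 2824 CPM, against 2403 CPM in the 57 shallowest of day 0. Deeper cells of that class were lower at day 5. The deepest Ibsp cells summed to 2381 CPM at day 5 and 2324 at day 0. The part of depth was not tested.

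**Figure D1:**
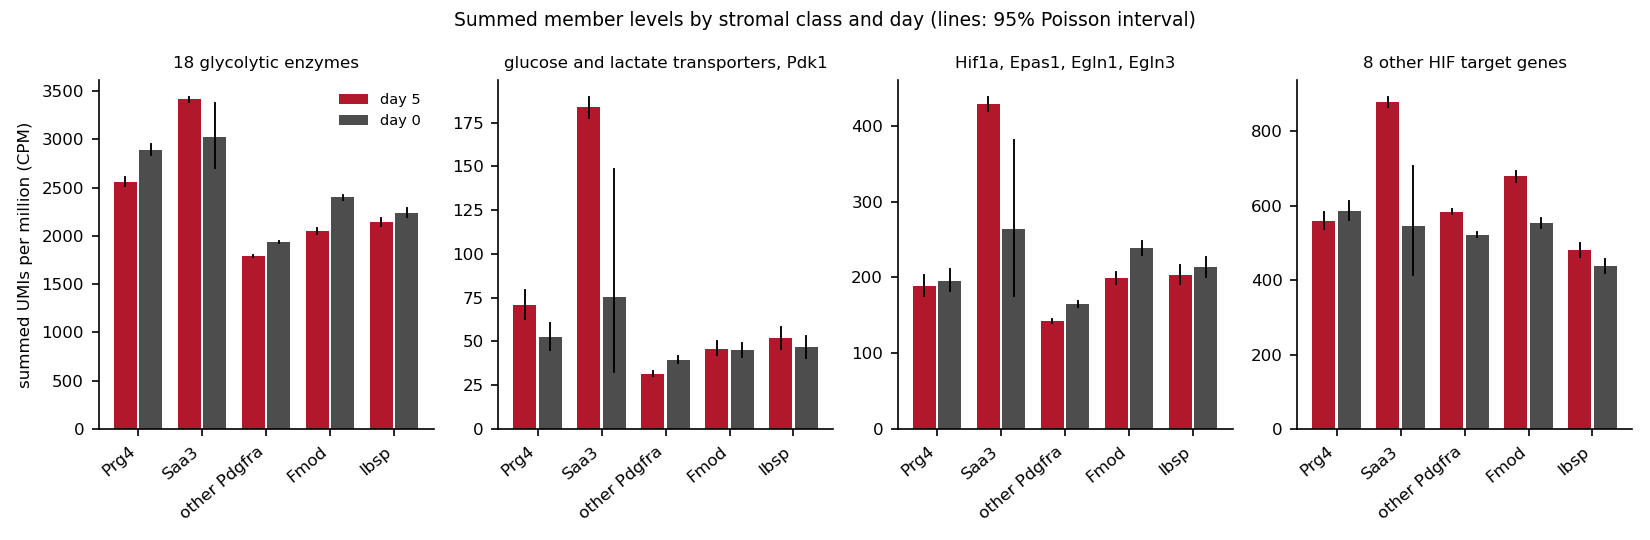
Summed CPM of the 4 role groups (panels) in 5 stromal classes at day 5 (red) and day 0 (grey), 1 library a day; lines are 95% Poisson intervals of counting error. The glycolytic sum is lower at day 5 in the Prg4, other Pdgfra, Fmod and Ibsp classes, and all 4 sums are highest in the day 5 Saa3 class; the day 0 bar of that class rests on 11 cells.

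The enzyme pattern was much the same gene by gene. Pgk1, phosphoglycerate kinase and a much used HIF target, stood at 52.0 CPM at day 5, against 69.0 CPM at day 0 in the other Pdgfra class, the lowest ratio of an enzyme there at 0.752 (0.716 to 0.791). Ldha, the lactate dehydrogenase subunit that favours lactate production, stood at 175 CPM at day 5, against 203 CPM at day 0, a ratio of 0.861 (0.838 to 0.886). Both were lower at day 5 beyond counting error but within 1.5-fold. Pfkfb3, which makes the activator of phosphofructokinase, and Ldhb, the lactate dehydrogenase subunit of oxidative tissues, had the highest ratios of the group. Pfkfb3 stood at 5.50 CPM at day 5, against 3.89 CPM at day 0 (ratio 1.41, 1.17 to 1.71). Ldhb stood at 33.9 CPM at day 5 and 24.1 at day 0 (ratio 1.41, 1.3 to 1.51). The Ldha share of the UMIs of both subunits was accordingly 83.8% at day 5 and 89.4% at day 0.

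In the Prg4 class no enzyme was apart among 17 measured, where 8.72% of all genes were higher at day 5 and 7.29% lower. Pfkm, the muscle isoform of phosphofructokinase, had the highest ratio, with 12.996 CPM at day 5, against 9.07 CPM at day 0 (1.43, 0.907 to 2.30), an interval that includes equality. Ldha had the lowest, with 310 CPM at day 5, against 405 CPM at day 0 (0.765, 0.709 to 0.826).

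In the Fmod class 2 of 17 enzymes were at least 1.5-fold higher at day 5 and none lower, where 9.67% of all genes were higher and 8.68% lower. Pfkfb3 stood at 5.87 CPM at day 5, against 3.39 CPM at day 0 (ratio 1.73, 1.15 to 2.64), but its ratio was 1.02 with each cell thinned to 2000 UMIs. Ldhb stood at 21.1 CPM at day 5 and 12.8 at day 0 (ratio 1.65, 1.34 to 2.04), and its ratio was 1.40 with classes set by marker UMIs. Pgk1 again had the lowest ratio, with 73.0 CPM at day 5, against 101 CPM at day 0 (0.721, 0.659 to 0.789). The Fmod class joins a cluster led by S100g and Angptl7 (486 cells at day 5, 896 at day 0) and a cluster led by Coch and Fmod (724 and 236 cells), so its makeup differed between the days. Within the S100g cluster the glycolytic sum was 2181 CPM at day 5, against 2445 CPM at day 0, and within the Coch cluster 1947 CPM at day 5 and 2188 at day 0.

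In the Ibsp class 1 of 17 enzymes was higher and none lower, where 7.43% of all genes were higher at day 5 and 5.54% lower. Hk2, the inducible hexokinase that traps glucose in the cell, stood at 54.3 CPM at day 5, against 33.4 CPM at day 0 (ratio 1.63, 1.34 to 1.99). Pkm, pyruvate kinase, had the lowest ratio, with 297 CPM at day 5, against 376 CPM at day 0 (0.790, 0.737 to 0.845). The Hk2 share of Hk1 and Hk2 UMIs was higher at day 5 in all 4 classes. It was 73.2% against 59.4% in the Ibsp class, 75.7% against 67.2% in the Fmod class, 76.6% against 69.0% in the Prg4 class and 86.2% against 83.6% in the other Pdgfra class.

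**Figure D2:**
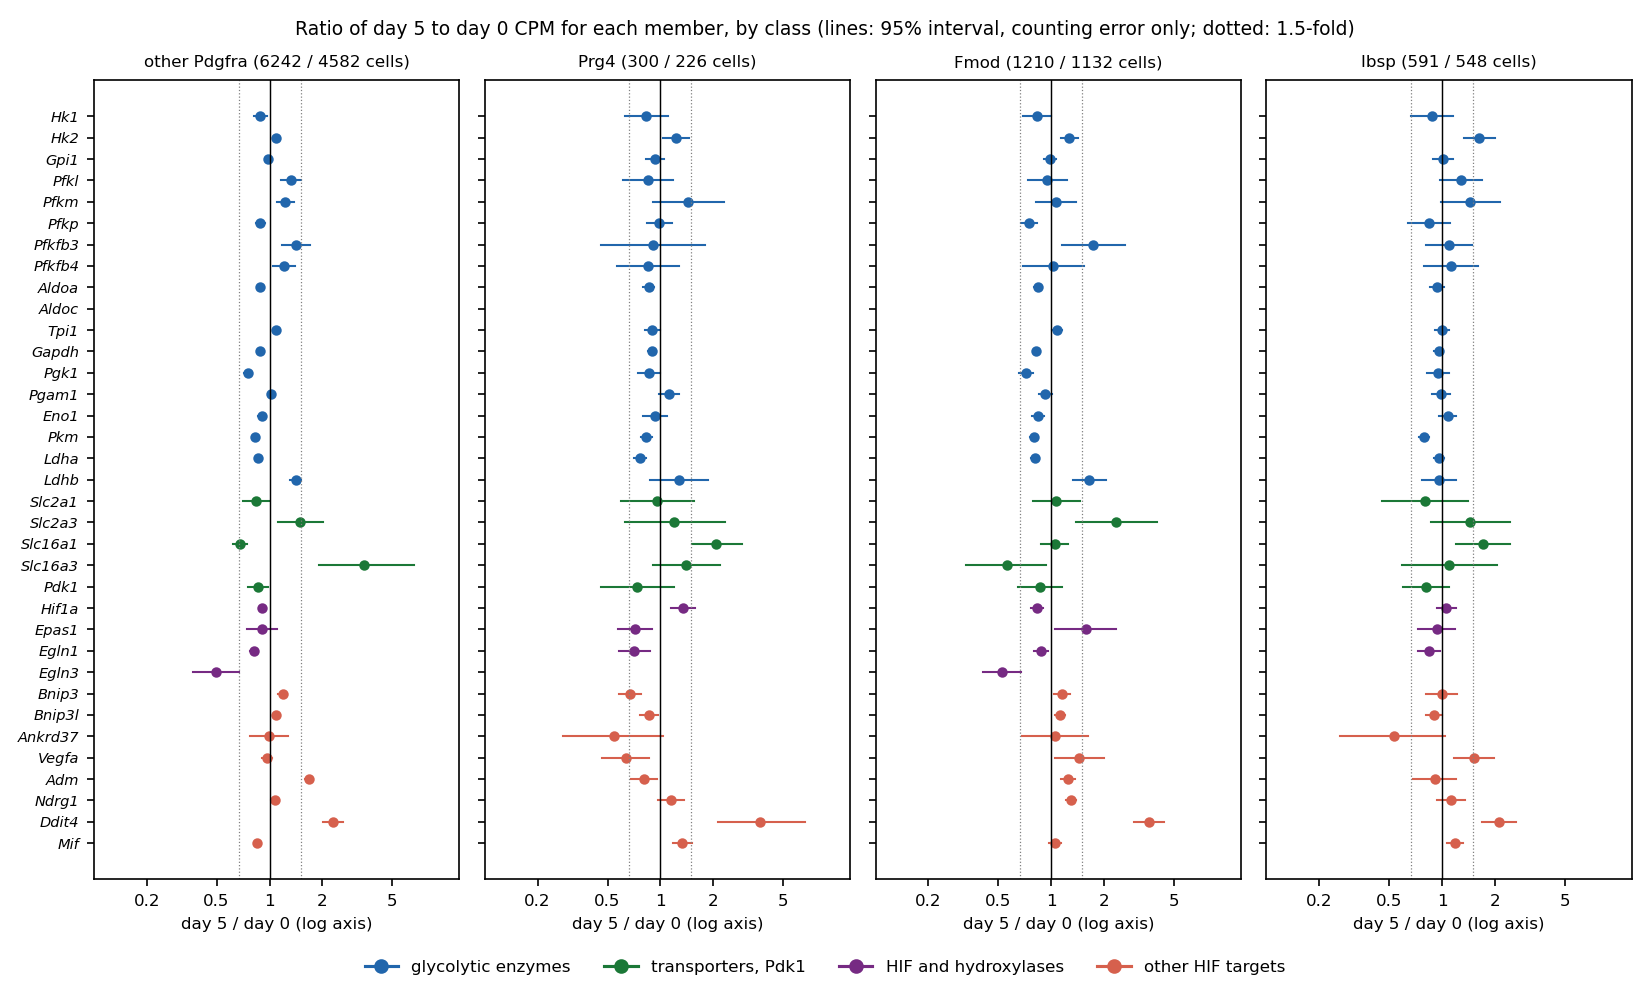
Ratio of day 5 to day 0 CPM (log axis) for each member in the 4 stromal classes with enough cells on both days; points are ratios, lines 95% intervals of counting error, dotted lines 1.5-fold, colours the role group. Aldoc was not measured, nor Egln3 in the Prg4 and Ibsp classes. Ddit4 lies beyond 1.5-fold to the right in every panel, while the glycolytic enzymes cluster around 1.

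Among the transporters, the direction differed between classes. Slc16a3, the lactate exporter and an HIF target, was nearly absent from the other Pdgfra class: 61 UMIs, or 1.05 CPM, at day 5 against 14 UMIs, or 0.304 CPM, at day 0, a ratio of 3.44 (1.90 to 6.67). The Fmod class had 24 Slc16a3 UMIs, or 2.17 CPM, at day 5 and 46 UMIs, or 3.89 CPM, at day 0, a ratio of 0.557 (0.325 to 0.932). Both ratios rest on few molecules. The first was 20.4 when the dividing cells described below were added to the class and 2.27 without doublet removal. The second was 0.803 at Leiden resolution 2.0, 0.272 without doublet removal and within 1.5-fold with equal weight for each cluster of the class. Slc16a1, the related carrier that moves lactate in either direction, stood at 31.9 CPM at day 5, against 15.3 CPM at day 0 in the Prg4 class (ratio 2.08, 1.5 to 2.91), at 17.96 CPM at day 5 and 10.57 at day 0 in the Ibsp class (1.70, 1.20 to 2.44), and at 15.4 CPM at day 5 and 22.7 at day 0 in the other Pdgfra class (0.678, 0.620 to 0.742). It was therefore higher at day 5 in the first pair of classes and had the lowest ratio of its group in the third. The Prg4 ratio was 1.46 at Leiden resolution 2.0 and 6.535 with classes set by marker UMIs, and the Ibsp ratio was 1.27 with cells thinned.

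Slc2a3, a high-affinity glucose transporter, stood at 4.52 CPM at day 5, against 1.95 CPM at day 0 in the Fmod class (ratio 2.32, 1.39 to 3.98). Slc2a1, the widespread glucose transporter, stayed within 1.5-fold in all 4 classes. Its level in the other Pdgfra class was 4.72 CPM at day 5, against 5.63 CPM at day 0 (0.839, 0.706 to 0.998), and in the Ibsp class, where its ratio was the lowest of the group, 4.97 CPM at day 5 and 6.22 at day 0 (0.799, 0.454 to 1.40). Pdk1, the kinase that keeps pyruvate out of mitochondria, also stayed within 1.5-fold, with the lowest ratio of the group in the Prg4 class at 8.58 CPM at day 5, against 11.6 CPM at day 0 (0.738, 0.456 to 1.19).

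Hif1a, the most abundant HIF alpha message here, was not apart in any of the 4 classes. It stood at 84.4 CPM at day 5, against 93.1 CPM at day 0 in the other Pdgfra class (ratio 0.907, 0.870 to 0.945), the highest ratio of its role group there. Cluster by cluster, Hif1a was higher at day 5 in 7 of the 11 measured (median ratio 1.06, between 0.744 and 1.36). The makeup of this class differed between the days: the cluster led by Krtdap held 1315 cells at day 5 and 288 at day 0, and that led by Efhd1 277 and 964. In the Prg4 class Hif1a stood at 107 CPM at day 5 and 79.4 at day 0 (1.34, 1.15 to 1.57), also the highest there. Egln3, the prolyl hydroxylase that is itself induced by HIF, was lower at day 5 in both classes where it was measured. It stood at 1.25 CPM at day 5, against 2.52 CPM at day 0 in the other Pdgfra class (0.497, 0.366 to 0.672), and 8.86 CPM at day 5 and 16.9 at day 0 in the Fmod class (0.523, 0.406 to 0.669). The Fmod value went with the makeup of the class: within its S100g cluster Egln3 stood at 18.6 CPM at day 5 and 20.6 at day 0 (0.902, 0.697 to 1.16), its Coch cluster held 6 Egln3 UMIs at day 5, too few beside the 1 at day 0 to be measured, and with equal weight for each cluster the ratio was 0.929. Egln1, the main oxygen-sensing hydroxylase, stayed within 1.5-fold, with ratios between 0.710 in the Prg4 class, the lowest of the group there, and 0.868 in the Fmod class; the Ibsp class had 66.7 CPM at day 5, against 79.4 CPM at day 0 (0.840, 0.724 to 0.974), again the lowest.

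Epas1, known for its role in blood vessels, was low in the other Pdgfra and Fmod classes and higher in the Prg4 and Ibsp classes. It stood at 38.0 CPM at day 5, against 53.0 CPM at day 0 in the Prg4 class (ratio 0.717, 0.576 to 0.892). The Ibsp class had 27.3 CPM at day 5 and 29.4 at day 0, and the other Pdgfra class 4.02 CPM at day 5 and 4.43 at day 0. The Hif1a share of Hif1a and Epas1 UMIs was 73.7% at day 5 and 60% at day 0 in the Prg4 class, and 95.5% on both days in the other Pdgfra class. In the Fmod class Epas1 stood at 5.96 CPM at day 5, against 3.81 CPM at day 0 (1.57, 1.06 to 2.34), which turned to 0.818 without doublet removal and was 1.12 with equal weight for each of its clusters. In the Ibsp class Hif1a had the highest ratio of the group with 108 CPM at day 5, against 103 CPM at day 0 (1.05, 0.933 to 1.19).

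Ddit4 was the 1 member at least 1.5-fold higher at day 5 in all 4 classes. It encodes an inhibitor of mTOR signalling that HIF, glucocorticoids and several stresses induce. It stood at 15.8 CPM at day 5, against 6.91 CPM at day 0 in the other Pdgfra class (ratio 2.29, 2.01 to 2.61) and at 17.7 CPM at day 5 and 4.82 at day 0 in the Prg4 class (3.66, 2.14 to 6.63; 2.17 without doublet removal and 6.84 with cells thinned). The Fmod class had 39.8 CPM at day 5, against 11.1 CPM at day 0 (3.59, 2.94 to 4.39), and the Ibsp class 52.6 CPM at day 5 and 25.1 at day 0 (2.10, 1.69 to 2.62). Among the 10 other Pdgfra clusters in which it was measured, Ddit4 was higher at day 5 in all 10 (ratios between 1.16 and 2.63). The summed level of 19 genes that rise during tissue dissociation and handling moved with it. It was 23832 CPM at day 5, against 19679 CPM at day 0 in the other Pdgfra class, 23166 CPM at day 5 and 20768 at day 0 in the Prg4 class, 13685 CPM at day 5 and 9626 at day 0 in the Fmod class, and 14813 CPM at day 5 and 12310 at day 0 in the Ibsp class. Of those 19 genes, 10 were at least 1.5-fold higher and 2 lower at day 5 in the Fmod class, 1 was higher and none lower in the other Pdgfra class, and none was higher and 2 lower in the Prg4 class and in the Ibsp class. Their part in the Ddit4 difference was not tested.

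Adm encodes adrenomedullin, a vessel-widening peptide and HIF target. It stood at 120 CPM at day 5, against 71.9 CPM at day 0 in the other Pdgfra class (ratio 1.67, 1.60 to 1.74), and was higher at day 5 in all 11 clusters measured there (ratios between 1.09 and 3.58). The other classes stayed within 1.5-fold: 90.1 CPM at day 5, against 72.6 CPM at day 0 in the Fmod class, 66.9 CPM at day 5 and 83.1 at day 0 in the Prg4 class, and 20.1 CPM at day 5 and 22.2 at day 0 in the Ibsp class. The cell type markers of leukocytes summed to 32.2 CPM at day 5, against 4.63 CPM at day 0 in the other Pdgfra class, and the 5 erythroid markers to 81.0 CPM at day 5 and 10.8 at day 0. With cells that held a leukocyte UMI left out, the Adm ratio there was 1.66.

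The remaining targets did not share a direction. Vegfa, the main vessel growth factor, stood at 30.0 CPM at day 5, against 19.9 CPM at day 0 in the Ibsp class (ratio 1.51, 1.16 to 1.96), a ratio that kept 1.5-fold under 7 of 12 other settings. In the Prg4 class it stood at 18.9 CPM at day 5 and 29.8 at day 0 (0.634, 0.466 to 0.859), which turned to 1.22 when classes were set by marker UMIs and was 0.923 with cells thinned. In the other Pdgfra class it was level at 34.995 CPM at day 5, against 36.1 CPM at day 0 (0.970, 0.908 to 1.04). Ankrd37, an ankyrin repeat gene induced by HIF, was low throughout, with 17 UMIs at day 5 and 27 at day 0 in the Prg4 class (4.17 CPM at day 5 and 7.66 at day 0, ratio 0.544, 0.278 to 1.04) and 15 and 26 UMIs in the Ibsp class (2.87 CPM at day 5 and 5.39 at day 0, 0.532, 0.262 to 1.04). Both intervals include equality, and these were the lowest ratios of the group in those classes.

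Bnip3 and Bnip3l, receptors that send mitochondria to autophagy, stayed within 1.5-fold in the 4 classes, between 0.671 for Bnip3 in the Prg4 class (79.7 CPM at day 5, against 119 CPM at day 0) and 1.19 for Bnip3 in the other Pdgfra class (55.8 CPM at day 5 and 47.0 at day 0). Mif, an inflammatory cytokine counted among HIF targets, had the lowest ratio of the group in the other Pdgfra class, 115 CPM at day 5, against 135 CPM at day 0 (0.851, 0.822 to 0.881), and was nearly level in the Fmod class at 116 CPM at day 5 and 110 at day 0 (1.05, 0.974 to 1.14). Ankrd37 had the lowest ratio in the Fmod class, at 4.07 CPM at day 5, against 3.89 CPM at day 0 (1.04, 0.677 to 1.61). Ndrg1, a stress-induced gene, ranged between 1.07 in the other Pdgfra class and 1.29 in the Fmod class.

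Over all members, 3 were higher and 1 lower of 34 in the other Pdgfra class, 2 and 2 of 33 in the Prg4 class, 5 and 2 of 34 in the Fmod class and 4 and 1 of 33 in the Ibsp class. The share of higher members was above the percentage over all genes given above in the Fmod and Ibsp classes and below it in the other Pdgfra and Prg4 classes. The share of lower members was below that percentage in every class. Each gap amounts to few genes. Longer lists of related genes varied by class. Of further hypoxia genes, 3 were higher at day 5 and 3 lower of 35 in the other Pdgfra class, 4 and 5 of 29 in the Prg4 class, 4 and 8 of 34 in the Fmod class and 2 and 2 of 33 in the Ibsp class. In the Fmod class both counts were above the share of all genes, 9.67% higher and 8.68% lower. The same held in the Prg4 class, beside 8.72% higher and 7.29% lower. In the other Pdgfra and Ibsp classes the lower count was above that share and the higher count below it, by few genes. Angptl4, a secreted regulator of fat uptake that HIF and PPAR factors induce, had the highest ratio of these hypoxia genes in each class. It stood at 32.4 CPM at day 5, against 10.4 CPM at day 0 in the other Pdgfra class, 39.0 CPM at day 5 and 4.54 at day 0 in the Prg4 class, 40.2 CPM at day 5 and 2.29 at day 0 in the Fmod class, and 72.6 CPM at day 5 and 16.4 at day 0 in the Ibsp class.

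Against it, Car12, a carbonic anhydrase, stood at 6.67 CPM at day 5, against 13.8 CPM at day 0 in the other Pdgfra class, and Ppp1r3c, a glycogen-targeting subunit, at 5.24 CPM at day 5 and 10.3 at day 0. Stc1, a secreted glycoprotein, stood at 0.813 CPM at day 5, against 4.74 CPM at day 0 in the Fmod class. Of further glycolysis genes 2 were higher and 1 lower of 16 in the other Pdgfra class, and none of 30 respiratory chain genes was apart in any of the 4 classes. Of 26 genes of pyruvate oxidation and the citric acid cycle, none was apart in the other Pdgfra and Ibsp classes, and 1 was higher in the Fmod class. Their sum was also lower at day 5 in each class, for example 1459 CPM against 1582 CPM at day 0 in the other Pdgfra class. The respiratory chain sum there was 6613 CPM at day 5 and 7001 at day 0, but in the Ibsp class 8382 CPM at day 5 and 8123 at day 0. A lower sum at day 5 was thus not particular to the glycolytic enzymes.

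Of the 5 classes, the Saa3 class at day 5 had the highest sum of each role group, and its cells were scarce at day 0. In the Saa3 class the glycolytic enzymes summed to 3417 CPM at day 5, against 1788 CPM in the other Pdgfra class and 2562 CPM in the Prg4 class of the same library. Hif1a stood at 364 CPM in the Saa3 class, against 84.4 CPM in the other Pdgfra class, a ratio of 4.31 (4.15 to 4.47). Both classes come from 1 library, and clusters were formed without the members. Of 34 members measured, 18 were at least 1.5-fold higher in the Saa3 class and 6 lower, where 13.8% of all genes were higher and 29.4% lower.

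By role, 9 of 17 enzymes were higher and 3 lower, and their median log2 ratio was 0.62 beside -0.18 over all genes. Pfkfb3 had the highest ratio, with 19.7 CPM in the Saa3 class, against 5.50 CPM in the other Pdgfra class (3.57, 3.07 to 4.16). Pgk1 followed with 179 CPM in the Saa3 class and 52.0 in the other Pdgfra class (3.44, 3.28 to 3.62), and Ldha with 587 CPM in the Saa3 class and 175 in the other Pdgfra class (3.35, 3.26 to 3.44). The higher enzymes thus came from the upper and the lower part of the pathway. Pkm, with 507 CPM in the Saa3 class, against 192 CPM in the other Pdgfra class, had a ratio of 2.65, and Eno1, enolase, with 173 CPM in the Saa3 class and 77.9 in the other Pdgfra class, a ratio of 2.22; Eno1b, a near-identical copy, holds few UMIs, so the split between them is uncertain. The liver-type phosphofructokinase Pfkl (2.27), Pgam1 (1.93), Gapdh (1.91) and Hk2 (1.54) were the other higher enzymes. With classes set by marker UMIs, Pgam1 (1.43) and Hk2 (1.46) were within 1.5-fold and the Pkm ratio was 1.70. The Pgk1 ratio was 2.21 with the dividing cluster added to the other Pdgfra class.

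Isoforms of the same step went apart. Ldhb stood at 12.2 CPM in the Saa3 class, against 33.9 CPM in the other Pdgfra class (0.362, 0.314 to 0.414), which put the Ldha share of both subunits at 98.0% in the Saa3 class and 83.8% in the other Pdgfra class. Pfkm (8.55 against 13.7 CPM, ratio 0.623) and Pfkfb4 (5.06 against 8.57 CPM, 0.590) were lower too, while Pfkl and Pfkfb3 were higher. Pfkfb4 turned to 1.20 with cells thinned, and Pfkm was within 1.5-fold by TMM scaling (0.677) and by median of ratios (0.688). The platelet-type Pfkp was level at 45.5 CPM in the Saa3 class and 45.8 in the other Pdgfra class.

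The lactate transporters stood far apart between the classes. Slc16a3 stood at 25.5 CPM in the Saa3 class, against 1.05 CPM in the other Pdgfra class (24.3, 18.6 to 32.3). That ratio varied with the processing: it was 3.04 with the dividing cluster added to the other Pdgfra class, 3.24 by marker UMIs, 3.71 without doublet removal and 3.81 with members in the clustering, and much of the level lay in the 212 cells described below. Slc16a1 stood at 134 CPM in the Saa3 class and 15.4 in the other Pdgfra class (8.66, 8.02 to 9.35), a ratio of 5.45 by marker UMIs. Slc2a1 stood at 14.4 CPM in the Saa3 class, against 4.72 CPM in the other Pdgfra class (3.05, 2.57 to 3.61), a ratio of 1.415 by marker UMIs, 1.64 without doublet removal and 1.73 with members in the clustering. Slc2a3 was the lower transporter at 1.56 CPM in the Saa3 class and 2.44 in the other Pdgfra class (0.641, 0.417 to 0.956), a ratio that kept 1.5-fold under 9 of 14 other settings. The Slc2a1 share of both glucose transporters was 90.2% in the Saa3 class and 65.9% in the other Pdgfra class.

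HIF subunits and targets were split. Besides Hif1a, Epas1 stood at 10.3 CPM in the Saa3 class, against 4.02 CPM in the other Pdgfra class (2.57, 2.11 to 3.12). Egln3 stood at 3.28 CPM in the Saa3 class and 1.25 in the other Pdgfra class (2.62, 1.84 to 3.72), but its ratio turned to 0.470 by marker UMIs and was 1.02 without doublet removal and 1.00 with members in the clustering. Egln1 was level at 51.7 CPM in the Saa3 class and 52.7 in the other Pdgfra class. Mif stood at 392 CPM in the Saa3 class, against 115 CPM in the other Pdgfra class (3.41, 3.30 to 3.52), Adm at 209 CPM in the Saa3 class and 120 in the other Pdgfra class (1.74, 1.68 to 1.81). Ddit4 stood at 24.0 CPM in the Saa3 class and 15.8 in the other Pdgfra class (1.51, 1.35 to 1.69), a ratio that kept 1.5-fold under 5 of 14 other processing settings. Bnip3 and Bnip3l went the other way, with 33.3 against 55.8 CPM (0.596, 0.546 to 0.649) and 92 against 153 CPM (0.602, 0.572 to 0.634; 0.682 by marker UMIs). So 3 of 8 targets were higher, 2 lower and 3 within 1.5-fold.

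Of further hypoxia genes 13 were higher in the Saa3 class and 8 lower of 34 measured. Angptl4 stood at 352 CPM in the Saa3 class, against 32.4 CPM in the other Pdgfra class, Plod2, a collagen-modifying hydroxylase, at 235 CPM in the Saa3 class and 40.0 in the other Pdgfra class. Stc1 stood at 1.41 CPM in the Saa3 class and 33.2 in the other Pdgfra class. Respiratory chain genes were higher in 7 of 30 and lower in none, among them Cox5a at 248 against 101 CPM. Citric acid cycle genes were higher in 4 of 26, among them Cs at 54.9 against 30.1 CPM. That count was near the 13.8% of all genes that were higher in the Saa3 class. Cells of the Saa3 class were deeper, with a median of 13506 UMIs against 8850 in the other Pdgfra class. The 320 shallowest cells of the Saa3 class, with a median of 7140 UMIs, summed to 2872 CPM of glycolytic enzymes, against 1897 CPM in the 1560 deepest cells of the other Pdgfra class with a median of 13185 UMIs. The part of depth in the ratios was not tested. The dissociation genes summed to 18116 CPM in the Saa3 class, against 23832 CPM in the other Pdgfra class, the erythroid markers to 489 CPM in the Saa3 class and 81.0 in the other Pdgfra class and the leukocyte markers to 5.99 CPM in the Saa3 class and 32.2 in the other Pdgfra class; without cells holding haemoglobin UMIs, 17 members were higher and 6 lower.

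Between the days the Saa3 class could hardly be compared, because of its 11 day 0 cells. Of 31 members measured, 8 were higher at day 5 and 8 lower, where 16.8% of all genes were higher and 36.5% lower. Only for Hk2, Pkm, Slc16a1, Hif1a, Adm and Mif among the higher members, and for Bnip3l and Ankrd37 among the lower, did the counting interval leave out equality; Hif1a, for example, had 6980 UMIs (364 CPM) at day 5 and 18 UMIs (170 CPM) at day 0, and Adm 4007 UMIs (209 CPM) and 4 UMIs (37.7 CPM). The other higher members, Pgam1 and Vegfa, rested on 11 UMIs and 1 UMI at day 0, and the other lower members, Pfkfb4, Ldhb, Pdk1, Epas1, Egln3 and Bnip3, on 1 to 6. Slc2a1, Slc2a3 and Slc16a3 had no UMI in the 11 cells, which allows up to 28.3 CPM at 3 counts; at day 5 they stood at 14.4, 1.56 and 25.5 CPM. Of the members called here, Pfkfb4, Pdk1, Egln3, Ankrd37 and Adm kept 1.5-fold under every other setting that gave a value, and the others did not.

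**Figure D3:**
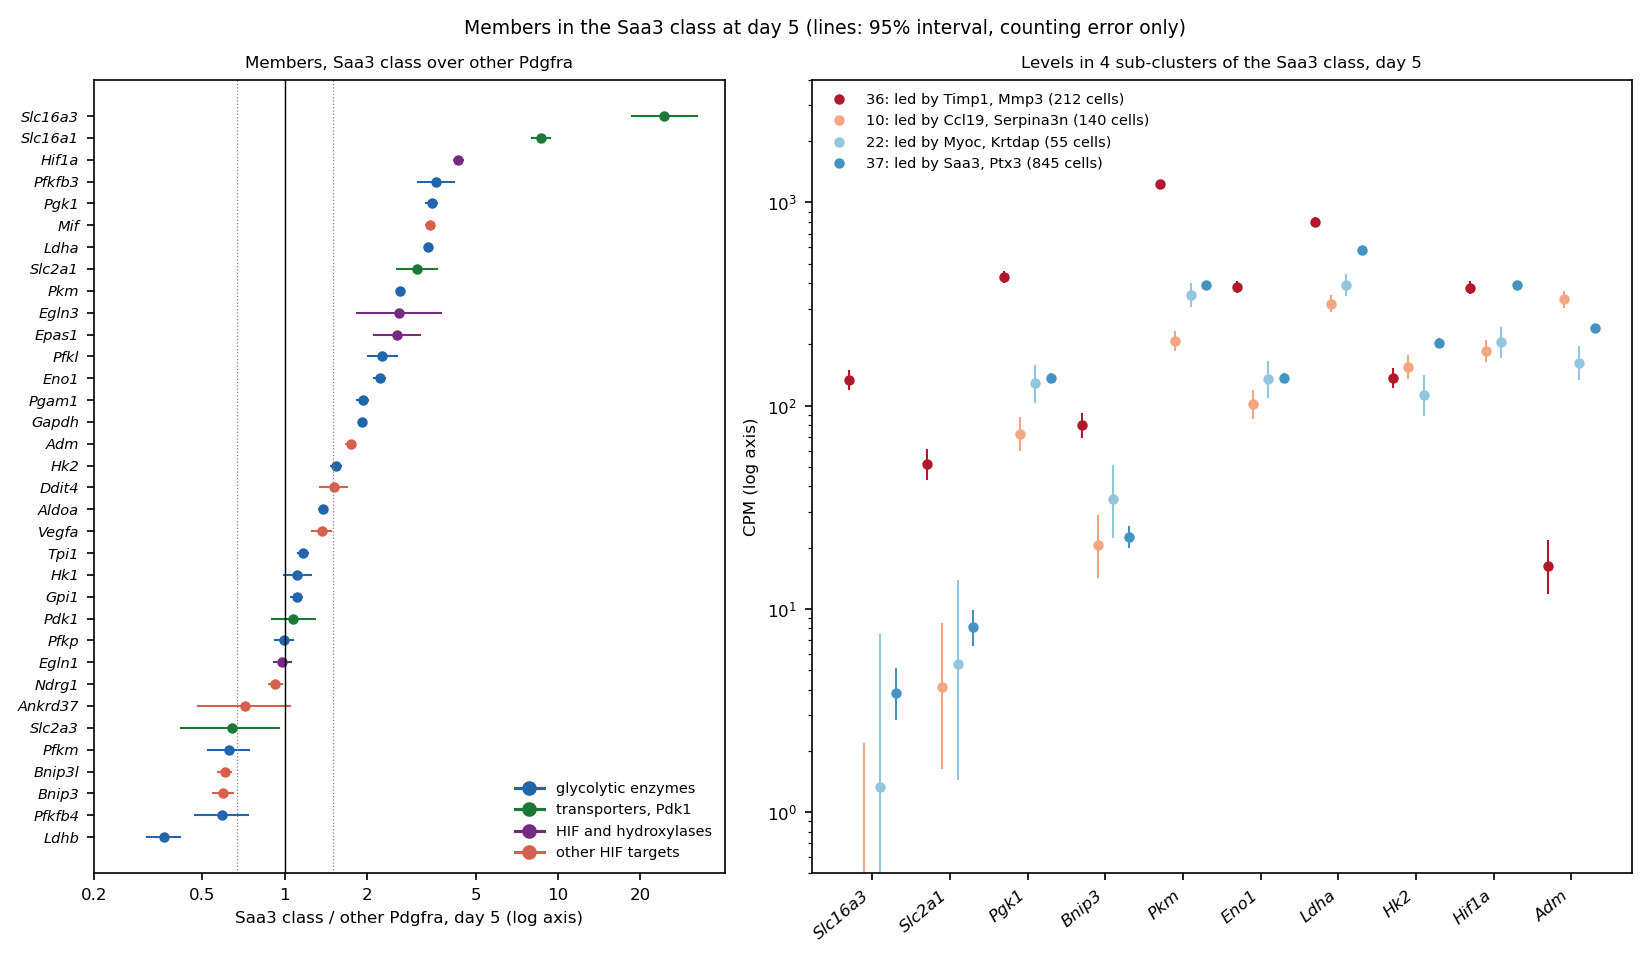
Left, ratio of CPM in the Saa3 class to CPM in the other Pdgfra class at day 5 (log axis) for the 34 members measured, coloured by role group, with dotted lines at 1.5-fold; right, CPM (log axis) of 10 members in 4 sub-clusters of the Saa3 class at day 5. Lines are 95% intervals of counting error, and a level of 0 has no point while its interval runs off the lower edge; the Timp1 sub-cluster stands highest for Slc16a3, Slc2a1, Pgk1, Bnip3, Pkm, Eno1 and Ldha, and lowest for Adm.

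Within the Saa3 class most of Slc16a3 lay in 212 of the 1277 day 5 cells. This sub-cluster was singled out after its values were seen, because Slc16a3 was among its leading genes beside haemoglobin genes, Timp1, Mmp3, Chil1, Inhba and Slpi. Its Slc16a3 level is therefore a description, and so are the counts of members below, which include Slc16a3. Slc16a3 stood at 133 CPM there and at 6.26 CPM in the rest of the Saa3 class (21.3, 17.1 to 26.7). Slc2a1 stood at 51.7 CPM in the sub-cluster and 7.74 in the rest (6.68, 5.24 to 8.53). Of 34 members measured, 22 were at least 1.5-fold higher in the sub-cluster and 2 lower, where 16.9% of all genes were higher and 16.2% lower.

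Most enzymes were higher, 11 of 17 against 1 lower, and the sum was 6232 CPM in the sub-cluster and 2915 CPM in the rest. Pkm stood at 1235 CPM in the sub-cluster and 378 CPM in the rest (3.27, 3.14 to 3.41), Pgk1 at 429 CPM in the sub-cluster and 134 in the rest (3.19, 2.97 to 3.42). Gapdh stood at 1702 CPM in the sub-cluster and 723 in the rest (2.35, 2.28 to 2.43). Hk2, at 137 CPM in the sub-cluster and 195 in the rest, and Ldha, at 801 CPM in the sub-cluster and 549 in the rest, stayed within 1.5-fold. Bnip3 stood at 79.9 CPM in the sub-cluster and 24.9 CPM in the rest (3.21, 2.72 to 3.78), Ddit4 at 56.5 CPM in the sub-cluster and 18.2 in the rest (3.11, 2.55 to 3.77). Egln3 stood at 8.96 CPM in the sub-cluster and 2.27 in the rest (3.94, 2.29 to 6.69). Hif1a, by contrast, was level at 380 CPM in the sub-cluster and 361 in the rest (1.05, 0.988 to 1.12).

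Adm was lower, with 16.2 CPM in the sub-cluster and 243 CPM in the rest (0.0666, 0.0488 to 0.0887). The second lower member was Ldhb, at 7.58 CPM in the sub-cluster and 13.1 in the rest. Of further hypoxia genes 18 were higher and 2 lower of 32, led by Cox4i2, a respiratory subunit of low oxygen, at 16.5 against 1.97 CPM, and Ndufa4l2, which dampens respiration, at 396 against 64.5 CPM. None of 26 genes of pyruvate oxidation and the citric acid cycle and none of 30 respiratory chain genes was apart. The dissociation genes summed to 10375 CPM in the sub-cluster and 19496 CPM in the rest, and 14 of 19 were lower. The erythroid markers reached 3219 CPM, from 8 cells with haemoglobin UMIs; without such cells 23 members were higher and 2 lower, with Slc16a3 at 135 against 5.28 CPM and Adm at 15.7 against 244 CPM. The rest of the Saa3 class, without the sub-cluster, had 17 members higher and 7 lower than the other Pdgfra class, where 12.3% of all genes were higher and 30.0% lower.

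The promoters of Slc16a3, Pgk1 and Ldha, all at least 1.5-fold higher in the Saa3 class, are shown beside that of Adm, which was also higher there but lower in the sub-cluster. Each sequence is the 250 bases before a RefSeq transcript start in build GRCm38.p6 on the plus strand, written 5′ to 3′, and capitals mark the letters ACGTG or GCGTG, the core that HIF binds, on either strand (on the opposite strand they read CACGT or CACGC). The Slc16a3 stretch is chr11:120948817-120949066, that of Pgk1 chrX:106186850-106187099, that of Ldha chr7:46845554-46845803 and that of Adm chr7:110627407-110627656.
Slc16a3: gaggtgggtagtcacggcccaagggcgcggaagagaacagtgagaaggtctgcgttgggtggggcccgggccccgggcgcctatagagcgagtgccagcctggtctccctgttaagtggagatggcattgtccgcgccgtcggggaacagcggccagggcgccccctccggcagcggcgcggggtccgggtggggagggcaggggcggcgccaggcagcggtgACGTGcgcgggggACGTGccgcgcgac
Pgk1: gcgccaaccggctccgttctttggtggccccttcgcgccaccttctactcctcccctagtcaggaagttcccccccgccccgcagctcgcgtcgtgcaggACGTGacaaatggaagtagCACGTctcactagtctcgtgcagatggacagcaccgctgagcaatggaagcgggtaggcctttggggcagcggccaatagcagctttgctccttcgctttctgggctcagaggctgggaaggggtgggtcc
Ldha: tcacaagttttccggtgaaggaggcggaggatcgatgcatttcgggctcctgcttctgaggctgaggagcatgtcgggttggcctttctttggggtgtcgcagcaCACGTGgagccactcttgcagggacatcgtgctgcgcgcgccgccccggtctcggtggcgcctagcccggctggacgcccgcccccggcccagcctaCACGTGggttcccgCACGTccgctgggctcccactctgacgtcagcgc
Adm: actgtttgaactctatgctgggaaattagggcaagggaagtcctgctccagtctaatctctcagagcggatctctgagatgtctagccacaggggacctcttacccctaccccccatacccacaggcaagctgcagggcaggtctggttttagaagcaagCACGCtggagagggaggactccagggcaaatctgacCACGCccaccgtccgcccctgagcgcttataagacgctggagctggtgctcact

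The Slc16a3 and Pgk1 promoters hold 2 cores each, that of Adm 2, and that of Ldha 5 when the palindrome CACGTG, which holds ACGTG on both strands and overlaps itself, is counted on each strand. Ldha has a further listed start, whose 250 bases hold 1 core. Promoters of 31 of the 35 members were in the RefSeq table; Epas1, Slc2a3, Bnip3l and Ndrg1 were not matched. At least 1 core was found for 28 of the 31 members (90.3%) and for 11226 of 27025 genes in the table (41.5%), or for 36 of 45 member promoters (80.0%) and 12679 of 32851 promoters (38.6%). Only Gpi1, Tpi1 and Mif of the 31 had none. Member promoters also held more CpG pairs, a median of 14 against 6, and the shares were not matched for that. A core is a match of letters, not a site shown to be bound.

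Outside the named classes, a small cluster of dividing cells led by Fabp5, Mki67 and Stmn1 had the highest stromal sum of glycolytic enzymes, 7293 CPM in 210 day 5 cells, against 1788 CPM in the other Pdgfra class; it held 8 cells at day 0. Of 34 members measured, 22 were at least 1.5-fold higher there and 2 lower, where 25% of all genes were higher and 26.1% lower. Slc16a3 stood at 127 CPM in the dividing cluster and 1.05 CPM in the other Pdgfra class (121, 92.7 to 161), Pgk1 at 551 CPM in the dividing cluster and 52.0 in the other Pdgfra class (10.6, 10.0 to 11.2), Eno1 at 677 CPM in the dividing cluster and 77.9 in the other Pdgfra class (8.69, 8.27 to 9.13). Mif stood at 955 CPM in the dividing cluster and 115 in the other Pdgfra class (8.30, 7.97 to 8.65). Hif1a stood at 495 CPM in the dividing cluster and 84.4 CPM in the other Pdgfra class (5.86, 5.55 to 6.19). As in the Slc16a3 sub-cluster, the lower members were Adm, at 61.3 against 120 CPM (0.511, 0.445 to 0.585), and Ldhb, at 10.8 against 33.9 CPM (0.319, 0.226 to 0.438). Here respiratory chain genes were higher too, 12 of 30 with none lower, and 9 of 26 citric acid cycle genes. Among the marker lists of the named classes, that of the Saa3 class scored highest in the dividing cluster. Over both days the cluster had Saa3 at 463 CPM, Ibsp at 487 CPM and Prg4 at 4717.5 CPM. Its high levels were in part shared with the Saa3 class of day 5. There the glycolytic sum was 3417 CPM, and in the Slc16a3 sub-cluster it was 6232 CPM, with Slc16a3 at 133 CPM.

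**Figure D4:**
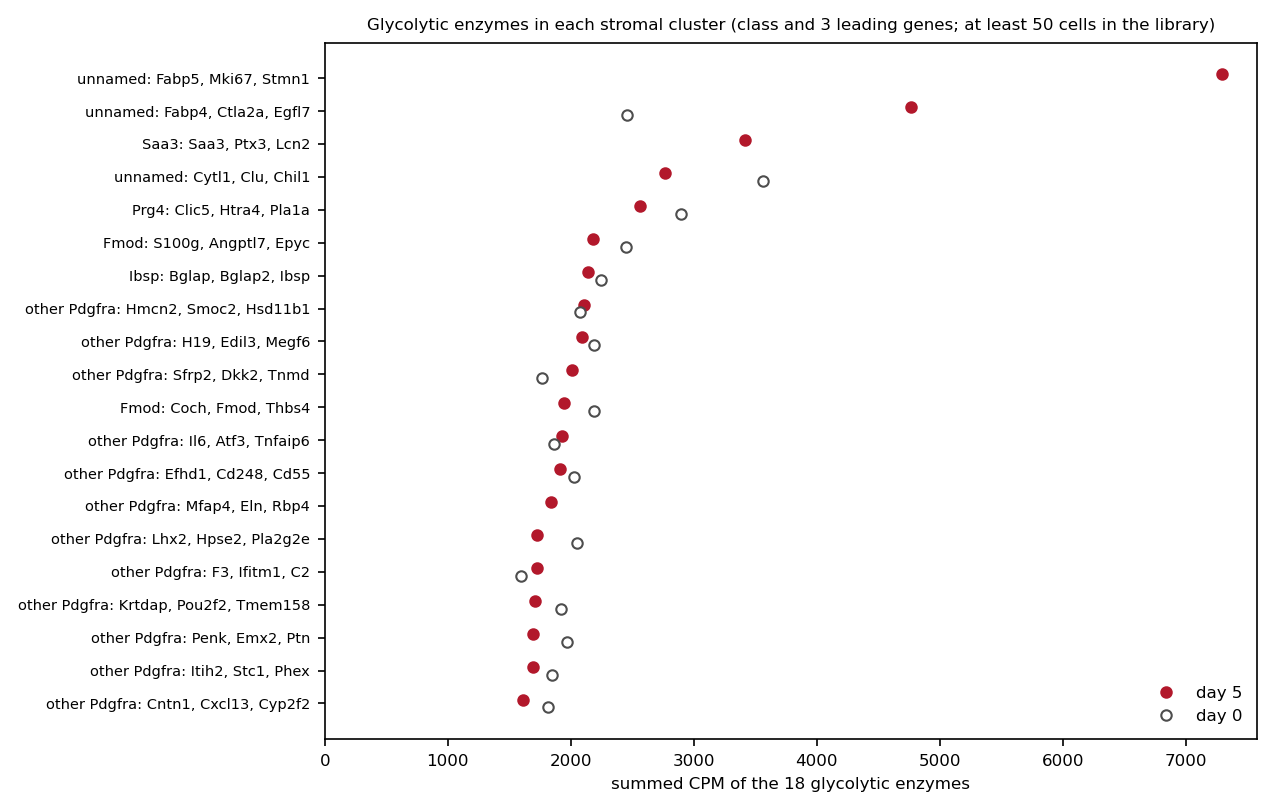
Summed CPM of the 18 glycolytic enzymes in each stromal cluster, labelled by class and 3 leading genes, at day 5 (filled) and day 0 (open), shown where the library had at least 50 cells in the cluster. The dividing cluster stands at 7293 CPM and the Fabp4 cluster at 4768 CPM at day 5; the other Pdgfra clusters lie between 1592 and 2192 CPM on both days.

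A cluster led by Fabp4, Ctla2a, Egfl7 and Pecam1, which carries blood endothelial markers, was the only cluster with at least 50 cells on both days whose glycolytic sum differed by more than 1.5-fold, 4768 CPM in 53 day 5 cells and 2461 CPM in 83 day 0 cells. Of 26 members measured in it, 10 were higher at day 5 and 7 lower, where 20.2% of all genes were higher and 22.7% lower. The 7 higher enzymes were Tpi1, Gapdh, Pgk1, Pgam1, Eno1, Pkm and Ldha, which act at or after the triose phosphates. Pgk1 stood at 265 CPM at day 5, against 88.1 CPM at day 0 (3.01, 2.24 to 4.10), Pkm at 757 CPM at day 5 and 257 at day 0 (2.95, 2.48 to 3.52). Gapdh stood at 1686 CPM at day 5 and 784 at day 0 (2.15, 1.94 to 2.38). Of the HIF genes 1 was higher and 3 lower of 4, and of the targets 2 were higher and 3 lower of 6. Epas1 stood at 225 CPM at day 5, against 453 CPM at day 0 (0.497, 0.411 to 0.600), Bnip3 at 23.9 CPM at day 5 and 77.5 at day 0 (0.308, 0.172 to 0.531) and Ddit4 at 91.8 CPM at day 5 and 190 at day 0 (0.483, 0.357 to 0.650), while Hif1a stood at 319 CPM at day 5 and 184 at day 0 (1.74, 1.39 to 2.18). The higher targets were Adm, at 42.7 CPM at day 5 and 15.2 at day 0 (2.81, 1.36 to 6.38), and Mif, at 243 CPM at day 5 and 111 at day 0 (2.19, 1.66 to 2.90). This cluster was named after its values were seen, and its lower Ddit4 ran against the 4 classes above.

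Another unnamed cluster, led by Cytl1, Clu and Chil1 and with the cartilage collagen Col2a1 among its leading genes, had 173 cells at day 5 and 282 at day 0 and the highest Egln3 of the stromal clusters. There Egln3 stood at 56.1 CPM at day 5, against 142 CPM at day 0 (0.394, 0.310 to 0.497), Slc16a3 at 16.8 CPM at day 5 and 52.5 at day 0 (0.321, 0.204 to 0.486). Ddit4 stood at 74.2 CPM at day 5 and 33.8 at day 0 (2.20, 1.66 to 2.92). Over all members 2 were higher and 3 lower of 33, where 10.7% of all genes were higher and 11.5% lower.

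Differences between classes were of similar size on both days for some members and not for others. Slc16a1 in the Prg4 and Ibsp classes stood above the other Pdgfra class at day 5 and below it at day 0, by the CPM given above. In the Fmod class the log2 ratio of Slc16a3 to the other Pdgfra class was 1.05 at day 5 and 3.68 at day 0. Against the other Pdgfra class, 13 of 34 members were higher and 3 lower in the Prg4 class at day 5, where 14.7% of all genes were higher and 23.1% lower, and 13 and 2 at day 0, where 15.9% were higher and 22.5% lower. Epas1 was 9.45-fold higher in the Prg4 class at day 5 and 11.96-fold at day 0, Slc16a3 13.6-fold and 33.5-fold, and Ldha 1.77-fold and 1.99-fold. In the Ibsp class 11 members were higher and 4 lower at day 5, where 21.5% of all genes were higher and 17.2% lower, and 11 and 6 at day 0, where 20.6% were higher and 16.6% lower. Epas1 was 6.80-fold higher there at day 5 and 6.64-fold at day 0, Pfkfb3 3.41-fold and 4.42-fold, and Adm stood at a ratio of 0.17 and 0.31. In the Fmod class 9 members were higher and 4 lower at day 5, where 9.06% of all genes were higher and 17% lower, and 8 and 4 at day 0, where 9.19% were higher and 16.0% lower; Egln3 was 7.06-fold and 6.71-fold higher, and Vegfa stood at a ratio of 0.25 and 0.17.

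In the day 9 myeloid library, member levels differed widely between cell clusters. The 18 glycolytic enzymes summed to between 2686 and 9374 CPM over 17 clusters with at least 50 cells. Differences of at least 2-fold between the highest and the lowest cluster were the rule for all genes (97.3%), and all 34 members with at least 20 UMIs in their highest cluster met it, so this count says nothing particular to them. Adm, abundant in stroma, had 56 UMIs in the whole day 9 library, and 10 UMIs in the cluster with its highest CPM.

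Glycolytic enzymes were highest in 845 cells led by Spp1, Pdpn and Arg1, at 9374 CPM. Cells led by Ptgs2, Thbs1 and Il1b (532 cells) followed at 7693 CPM and cells led by Gdf3 and Hmox1 (228) at 7634 CPM. Cells led by the interferon-induced genes Rsad2 and Ifit1 (101) stood at 7297 CPM. The lowest sums were found in cells led by Vsig4 and Lyve1 (393), known markers of resident and lining macrophages, at 2686 CPM, in cells led by Ccl22 and Ccr7 (95), known from migrating dendritic cells, at 3455 CPM, and in cells led by Ifitm1, Klrd1 and Cd209a (427) at 3758 CPM.

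**Figure D5:**
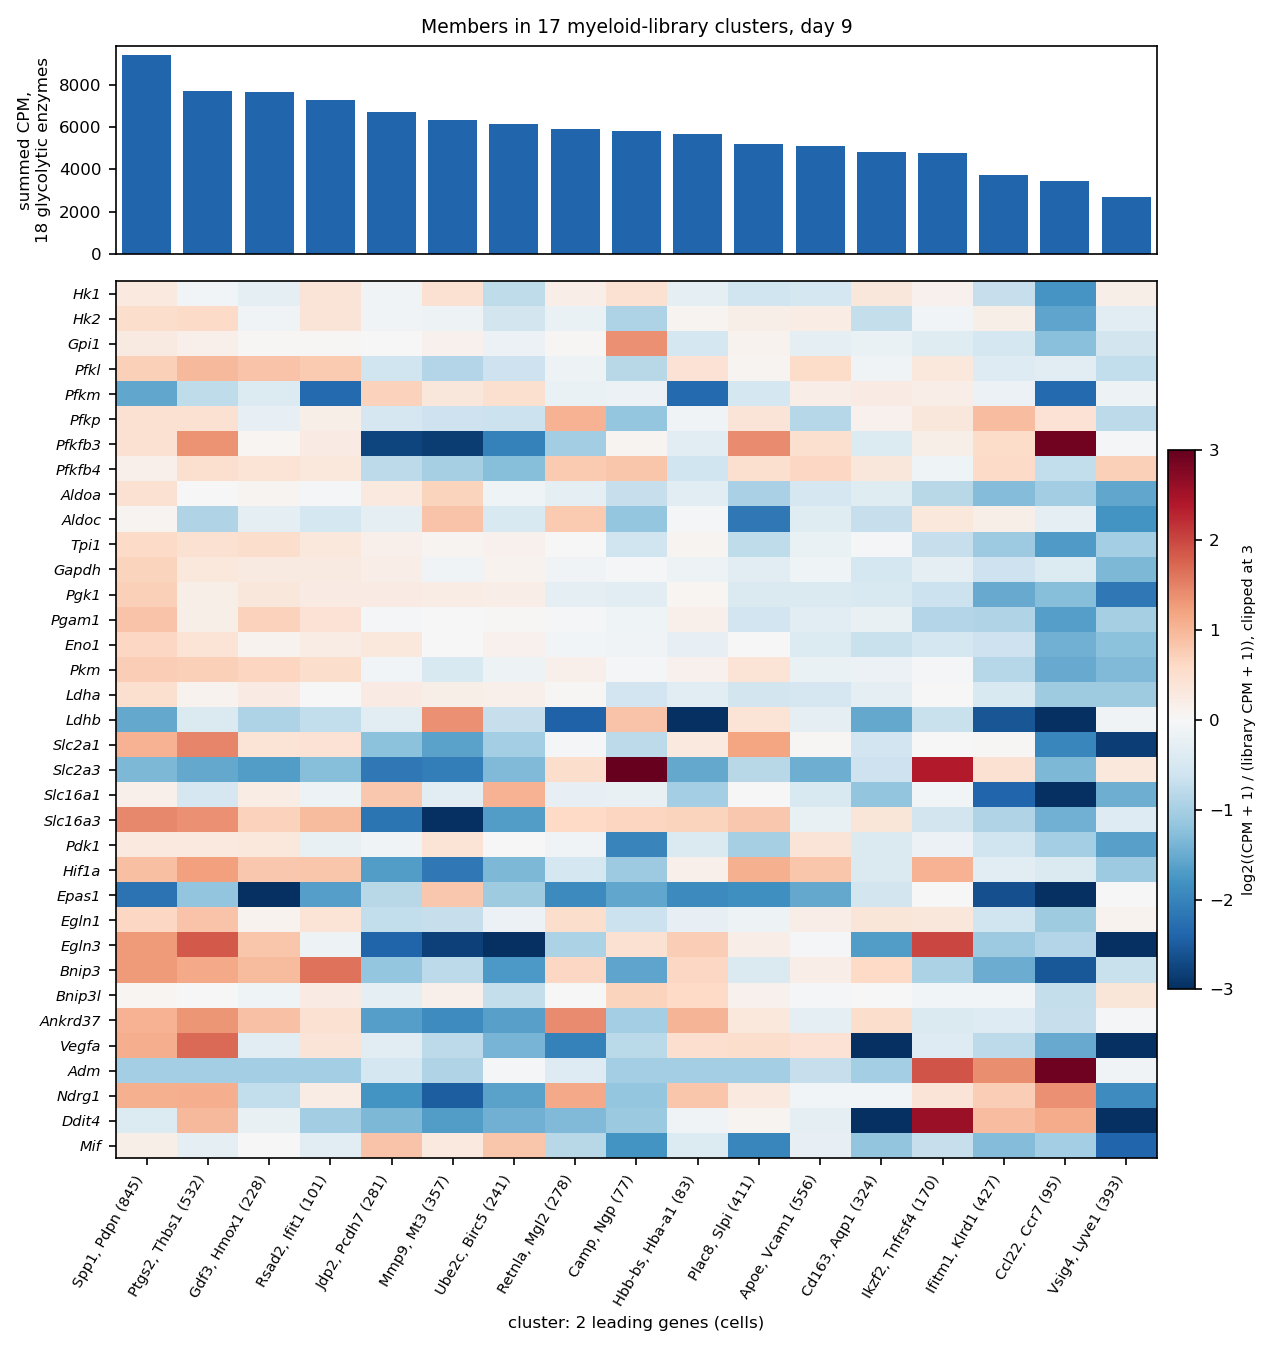
Members in 17 clusters of the day 9 myeloid library with at least 50 cells, each labelled by 2 leading genes and its number of cells. Bars, summed CPM of the 18 glycolytic enzymes, with 9374 CPM in the Spp1 cluster at the left and 2686 CPM in the Vsig4 cluster at the right; colours, log2 of each member's CPM plus 1 over its CPM plus 1 in the whole library, clipped at 3 in both directions.

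In the Spp1 cluster 17 of 34 members were at least 1.5-fold higher than in the rest of the library and 4 lower, where 9.37% of all genes were higher and 30.6% lower. Gapdh stood at 3009 CPM in the cluster and 1758 CPM in the rest (1.71, 1.68 to 1.74), Pgam1 at 761 CPM in the cluster and 382 in the rest (1.99, 1.93 to 2.06). Slc16a3 stood at 345 CPM in the cluster and 102 in the rest (3.40, 3.22 to 3.58). Among the targets, Bnip3 stood at 114 CPM in the cluster and 38.7 CPM in the rest (2.95, 2.69 to 3.23), and Vegfa at 221 CPM in the cluster and 90.8 in the rest (2.44, 2.28 to 2.60). So both enzymes and HIF targets were higher there, and Hif1a with them, at 539 CPM in the cluster and 259 in the rest (2.08, 2.00 to 2.16). The 4 lower members were Pfkm, Ldhb, Slc2a3 and Epas1, each at under 4 CPM in the cluster.

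The Ptgs2 cluster also stood high for HIF targets, with fewer enzymes apart: 14 of 34 members were higher and 4 lower, where 12.6% of all genes were higher and 38.0% lower. It held the highest Vegfa, Hif1a and Slc2a1 of the library. Vegfa stood at 341 CPM in the cluster and 87.5 CPM in the rest (3.90, 3.66 to 4.16), Hif1a at 682 CPM in the cluster and 260 in the rest (2.62, 2.51 to 2.73). Slc2a1 stood at 131 CPM in the cluster and 41.0 in the rest (3.21, 2.90 to 3.55). Gapdh, Pgk1 and Ldha stayed within 1.5-fold of the rest, and 4 of 18 enzymes were higher (Hk2, Pfkl, Pfkfb3 and Pkm), all but Pkm in the upper pathway. The dissociation genes summed to 21978 CPM in this cluster, the highest of the 17, against 16796 CPM in the Spp1 cluster and 9969 CPM in the Vsig4 cluster; their part was not tested.

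In the Vsig4 cluster 20 of 34 members were at least 1.5-fold lower than in the rest of the library and 1 higher, where 24.0% of all genes were lower and 26.1% higher. Pgk1 stood at 101 CPM in the cluster and 466 CPM in the rest (0.22, 0.19 to 0.25), Aldoa at 230 CPM in the cluster and 697 in the rest (0.33, 0.30 to 0.36). Mif stood at 101 CPM in the cluster and 552 in the rest (0.18, 0.16 to 0.21). Of the 8 targets 5 were lower and none higher: Vegfa had 9 UMIs, 4.02 CPM, against 108 CPM in the rest, and Ddit4 3 UMIs, 1.34 CPM, against 20.8 CPM, while Bnip3l stood at 135 CPM in the cluster and 103 in the rest (1.31, 1.16 to 1.47). The glucose transporter Slc2a1 had 13 UMIs, 5.80 CPM, against 48.7 CPM in the rest. The 1 higher member was Pfkfb4, at 33.04 CPM in the cluster and 19.01 in the rest (1.74, 1.35 to 2.20).

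Members were lower in several other clusters as well. In the Ifitm1 cluster 18 of 35 were lower and 7 higher, where 32.1% of all genes were lower and 15.8% higher. In cells led by Cd163 and Aqp1 (324) the counts were 12 lower and 2 higher of 34, where 19.7% of all genes were lower and 23.0% higher. In cells led by the cell division genes Ube2c and Birc5 (241), 19 of 35 were lower and 3 higher, where 27.3% of all genes were lower and 20.3% higher. In the Ccl22 cluster 22 of 31 were lower and 4 higher, where 38.4% of all genes were lower and 21.3% higher.

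Some members had wide ranges between single clusters. Pfkfb3 stood highest in the Ccl22 cluster at 276 CPM, against 4.14 CPM in cells led by Mmp9 and the osteoclast protease Ctsk, the lowest, a ratio of 66.6 (47.6 to 95). Aldoc was highest in those Mmp9 cells at 13.8 CPM, against 0.83 CPM (2 UMIs) in cells led by Plac8. The third enzyme by range was Ldhb, at 36.5 CPM in the Mmp9 cells and without a UMI in cells led by the haemoglobin gene Hbb-bs, which makes it at least 10.6-fold higher at 3 counts. Among the transporters the largest ratios were those of Slc2a3, 74.8 CPM in cells led by the granule genes Camp and Ngp against 0.41 CPM (2 UMIs) in cells led by Jdp2 (183, 49.0 to 1532), of Slc16a3, 345 CPM in the Spp1 cluster against 14.4 CPM in the Mmp9 cells (24.0, 20.3 to 28.6), and of Slc2a1, 131 CPM in the Ptgs2 cluster against 5.80 CPM in the Vsig4 cluster (22.6, 13.1 to 42.8).

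Among the HIF genes, Hif1a stood at 682 CPM in the Ptgs2 cluster, against 64.3 CPM in the Mmp9 cells (10.6, 9.73 to 11.6). Egln3 stood at 37.8 CPM in cells led by Ikzf2 and Tnfrsf4, against no UMI in the Vsig4 cluster, at least 28.2-fold higher at 3 counts. These Ikzf2 cells carry the T cell genes Cd3d, Cd3g and Trbc2 among their leading genes, so they are not myeloid by their markers. Egln1 ranged between 94.8 CPM in the Ptgs2 cluster and 24.3 CPM in the Ccl22 cluster (3.90, 2.40 to 6.78). Targets with the widest ranges were Ddit4, 125 CPM in the Ikzf2 cells against 1.34 CPM in the Vsig4 cluster (93.1, 31.5 to 455), Vegfa, 341 CPM in the Ptgs2 cluster against 4.02 CPM in the Vsig4 cluster (84.9, 44.6 to 186), and Bnip3, 145 CPM in the Rsad2 cells against 7.15 CPM (5 UMIs) in the Ccl22 cluster (20.3, 8.39 to 63.9). The Mmp9 cells, with a median of 27764 UMIs the deepest of the library, joined a glycolytic sum of 6326 CPM with the lowest Hif1a and Slc16a3, and Aldoa at its highest, 1080 CPM; 4 of 18 enzymes were higher there than in the rest and 4 lower, and none of 8 targets was higher and 6 lower, where 16.9% of all genes were higher and 34.9% lower.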

How the data were processed

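Counts are UMIs per gene and cell barcode in filtered matrices made by the authors; the file headers name Cell Ranger 6.0.1, run on a mouse reference of build mm10, per the labels; the single-cell kit counts the 3' ends of transcripts. Seurat 4.3.0 is named in the submitters' processing notes with no role. The 3 libraries held 122224428 (day 5), 77842586 (day 0) and 69430907 (day 9) UMIs in 11900, 7740 and 7795 barcodes. Cells with at least 500 genes, 1000 UMIs and at most 10% mitochondrial UMIs were kept, and doublets were taken out by Scrublet score, from the top, at a rate of 0.8% for each 1000 barcodes (1064, 456 and 371 cells), since Scrublet's own calls numbered 1117, 2 and 0. Clustering with scanpy 1.11.5 (2000 variable genes, 30 components, 15 neighbours, Leiden resolution 1.0, and 2.0 for sub-clusters) left out the members and the related pathway genes. Class names are rebuilt from markers and are not the authors' own. The member genes, marker lists and other gene lists were chosen with earlier results of these data known. CPM carry exact Poisson intervals and ratios exact conditional binomial intervals at 95%, which cover counting error only. All 35 members were accounted for, and full values are given for members at least 1.5-fold apart in a class, for the highest and lowest ratio in each role group, and in myeloid clusters for the 3 widest ranges in a role group. With 1 library per group no test was run, and the ratio step recovered known folds when tested on simulated data. Aldoa has a second row of 5 UMIs in all, which was not used. No column lacked a sample. Promoters come from RefSeq, build GRCm38.p6. Alternatives were stricter and absent filters, other clusterings, scalings by edgeR 4.0.16 (TMM) and DESeq2 1.42.0 (median of ratios), thinning to 2000 UMIs and cells left out.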

Additional observations from a re-analysis of the deposited data

Results flagged for a closer look

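Under the main settings Slc16a3 and Vegfa moved in opposite directions between the days in different stromal classes. The Slc16a3 ratio of day 5 to day 0 was 3.443 in the other Pdgfra class, on 61 and 14 UMIs, and 0.5569 in the Fmod class, on 24 and 46 UMIs. The Vegfa ratio was 1.508 in the Ibsp class, on 157 and 96 UMIs, and 0.6341 in the Prg4 class, on 77 and 105 UMIs. The Ibsp value kept 1.5-fold under 7 of 12 other settings, and the Prg4 value turned to 1.219 by marker UMIs. Each day is 1 library, so the difference between classes was not tested.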

How the results depend on the processing

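No paired analysis was possible because each group is 1 library. Counts of members at least 1.5-fold apart between the days moved by more than 1.5 times as follows. In the Prg4 class the higher count of 2 became 11 with classes set by marker UMIs (gates chosen after seeing the data) and 4 with cells thinned to 2000 UMIs, and the lower count of 2 became 5 under the stricter cell filter, 4 without doublet removal, 4 with members in the clustering, 5 by marker UMIs and 1 when thinned. In the Saa3 class the higher count of 8 became 13 at Leiden resolution 2.0 and 5 when thinned, and the lower count of 8 became 4 without doublet removal, 4 by marker UMIs, 5 by TMM, 5 by median of ratios and 4 when thinned. In the other Pdgfra class the higher count of 3 became 5 with the dividing cluster added, and the lower count of 1 became 2 under the stricter filter, 2 with members in the clustering and 2 by the mean of each cell's CPM. In the Fmod class the higher count of 5 became 3 by marker UMIs, 3 when thinned and 3 with equal weight for each cluster, and the lower count of 2 became 1 at resolution 2.0 and 0 with equal weight. In the Ibsp class the lower count of 1 became 3 by marker UMIs and 2 with no count minimum. Ratios of day 5 to day 0 that changed direction were those of Vegfa in the Prg4 class (1.219 by marker UMIs), Epas1 in the Fmod class (0.8182 without doublet removal), and, in the Saa3 class with its 11 day 0 cells, Hk2 (0.963 by marker UMIs, 0.8893 thinned), Ldhb (1.14 with members in the clustering, 1.198 by marker UMIs), Slc16a1 (0.8851 with members in the clustering), Epas1 (2.363 without doublet removal, 1.116 by marker UMIs) and Vegfa (0.7804 without doublet removal, 0.9441 at resolution 2.0, 0.996 by marker UMIs). For the Saa3 class over the other Pdgfra class, Pfkfb4 turned to 1.195 when thinned and Egln3 to 0.4696 by marker UMIs; the cause was not tested. Ddit4 stayed at least 1.5-fold higher at day 5 under every alternative run in the Prg4 (2.17 to 6.84), other Pdgfra (1.79 to 2.60), Fmod (2.45 to 3.73) and Ibsp (1.92 to 2.48) classes. Counts for the Saa3 class over the other Pdgfra class ran between 13 and 20 higher and between 4 and 7 lower. TMM and median of ratios shifted all log2 ratios by 0.12 and 0.14 there and by 0.30 for the Saa3 class between the days. Members under about 20 UMIs were limited by depth.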
